A study of Mus musculus with 50 samples.

Results

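The proteins that start, extend and supply messenger RNA translation were followed in the paraventricular nucleus (PVN) of the hypothalamus, the region that drives the hormonal stress response. Spotted clones were taken by their printed names: those beginning as a eukaryotic translation initiation factor, a eukaryotic elongation factor or a termination factor, and those containing the words tRNA synthetase. This gave 90 of the 22824 clones on the array, under 53 names, of which 25 names had more than 1 clone. No clone was named as a termination factor or as initiation factor 4B. Symbols could be given to 81 clones, for 47 genes, and 9 clones had a name that stops short of one gene (an EST, a homolog or a complex without its subunit). The name rule also took 4 clones of the argonautes Ago1, Ago2 and Ago3, once numbered as factor 2C but acting in small RNA silencing, and Eefsec, the elongation factor for selenocysteine. They are grouped apart as other.

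The RNA came from male mice of the inbred strains DBA/2J and C57BL/6J, singly housed and 3 to 5 months old. Groups were DBA/2J mice killed 4 h after a 5 min forced swim, C57BL/6J mice 4 h after it, DBA/2J mice 8 h after it, C57BL/6J mice 8 h after it, and non-stressed mice of DBA/2J and of C57BL/6J. The labels give the tissue as punched PVN, while the methods speak of punching the PVN together with a neighbouring region, and RNA of 6 mice was pooled per condition. Pools were paired in 5 ways (DBA/2J against C57BL/6J without stress, and each stressed pool against its own strain's non-stressed pool), and each pair was put on 10 two-colour cDNA arrays, with the dyes exchanged on 5, which makes 50. Arrays of one comparison repeat the hybridisation of the same 2 pools. The standard errors and p-values therefore compare 2 pools and do not hold the spread between animals, and fewer cells of a type cannot be told apart from less RNA per cell. Both times share one non-stressed pool within a strain, and the comparison of the strains sets the same non-stressed pools against each other.

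Translation begins when initiation factor 2 (eIF2) brings the first tRNA to the small ribosomal subunit, held there by the many-subunit eIF3 and guided to the capped end of the mRNA by eIF4E, eIF4G and the helicase eIF4A. Elongation factor 1 (eEF1) then delivers each loaded tRNA and eEF2 moves the ribosome along, while the tRNA synthetases load the tRNAs with their amino acids. In stressed cells kinases can phosphorylate the alpha subunit of eIF2 and slow initiation, and eEF2 kinase can slow elongation. Many mRNAs of this machinery open with a run of pyrimidines, by which their own translation is coupled to growth signals.

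Annotated starts are shown for 6 of the genes whose clones passed the test in some comparison (Eef1d and Eif3e also passed). Many genes of this machinery are known for that run of pyrimidines, though not every gene shown here need have it. Each line gives the RefSeq sequence (GRCm38.p6) of the coding strand, 5′ to 3′, from 5 bases before an annotated start to 25 after it, and capitals mark a C followed by at least 4 bases that are each C or T.
Eef1a1, chr9:78481700-78481729, minus strand: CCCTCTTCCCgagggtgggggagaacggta
Eef1e1, chr13:38659004-38659033, minus strand: agctgtgcaggccccgCCTCCCTaggagct
Eef2, chr10:81176626-81176655, plus strand: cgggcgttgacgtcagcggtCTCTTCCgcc
Eif2ak1, chr5:143817787-143817816, plus strand: CTTCCgttggCTCTTgtgttaCTTCCggct
Eif2ak4, chr2:118388612-118388641, plus strand: cccgCCCTCagttcggtcacggcgcgggct
Eif2ak4, chr2:118389107-118389136, plus strand: caaccattCTTCCCCacactgactcgcccc
Eif2s2, chr2:154892882-154892911, minus strand: tggctttactgtacgcctgcgctttggcga
The marked string was taken at any place in the window, so a match need not be the run that opens an mRNA. It spans the annotated start in Eef1a1 and lies further in for Eef2 and Eef1e1. In the window of Eif2ak1 it occurs 3 times, the first of them wholly in the 5 bases before the start. It is not in the window of Eif2s2. Of the 9 annotated starts of the called genes, 6 hold the string, and the starts not shown are without it. It is a common string: 34.6% of all 32851 annotated starts hold it, and so do 19 of the 48 starts (39.6%) of the 35 translation genes with an entry. Only the coding strand was searched, and a match is a description of the sequence.

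The clones covered a wide range of spot brightness. Empty spots on the same arrays served as the floor: a clone was taken as over the empty-spot level when it was brighter in both dyes than 95 in 100 empty spots of that array. By this measure 29 of the 90 clones were over the level on at least 25 of the 50 arrays, 4 were over it on all 50, 51 on 1 to 24 arrays and 10 on none, and none was saturated. The 4 clones over it on every array were Eif4a2 clone 4, with a median intensity over the 2 dyes of 9006, Eif4e clone 2 with 7312, Eef1b2 clone 2 with 6862 and Eif4g2 clone 3 with 6448. Eif4a2 and Eif4e are a helicase and the cap-binding protein, Eef1b2 recharges eEF1A with GTP, and Eif4g2 is a scaffold that works without eIF4E. The brightest clone of the synthetases was an EST weakly similar to alanyl-tRNA synthetase (7400), of the eEF2 group Eef2 clone 2 (3248), of the factors around eIF2 Eif2s2 clone 1 (2270), of the eIF3 subunits Eif3f clone 1 (1381), of eIF5A Eif5a clone 1 (960) and of the eIF2 alpha kinases Eif2ak4 (803). The brightest eIF4E binding protein, Eif4ebp2 (319), and the brightest mitochondrial synthetase, a clone similar to isoleucyl-tRNA synthetase (187), stayed over the level on 7 and 10 of the 50 arrays. Brightness also follows clone length and labelling, so these values order spots and not mRNAs.

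Between 12.2% and 76.7% of the translation clones were over the empty-spot level on an array, and between 5.31% and 57.1% of all clones. The DBA/2J 8 h arrays had the lowest shares. Their empty-spot level lay at 1426 to 4367, against 171 to 1557 on all other arrays, and 73 of the 90 clones were over it on none of the 10. Of the marker clones of the tissue, 7 of 13 for neurons, 13 of 26 for astrocytes and 6 of 18 for oligodendrocytes were over the level on at least 25 arrays, while of the PVN peptides Sst clone 1 was over it on 26 and clone 2 on 0, Trh on 17, Avp on 11 and Oxt on 0 arrays. Log2 ratios were set as stressed over non-stressed, or DBA/2J over C57BL/6J, by the dyes in the labels. This direction is opposite to the one printed by the study in all 5 comparisons, and the files do not settle which holds. The study's own follow-up in DBA/2J ran in its printed direction. It used real-time PCR of a pair of genes from its lists, on samples that were not pooled. The study states that in situ hybridisation gave an increase as well. With the sign turned, every higher below reads lower and every lower reads higher. The mean ratios of the 2 dye orientations agreed little over the 90 clones (Pearson's r over clones, which are not independent, of 0.124 between strains, 0.0866 in DBA/2J at 4 h, -0.0179 in C57BL/6J at 4 h, 0.183 in DBA/2J at 8 h and -0.234 in C57BL/6J at 8 h), and 52, 53, 48, 51 and 38 of the 90 clones, in that order, had the same sign in both. Over all clones r was 0.1162, -0.1125, -0.0210, 0.0136 and -0.2612 in the same order. Low agreement was thus not particular to the translation clones.

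A clone counts as called when its log2 ratio was 0.5 or more in size, a fold of 1.41, with an adjusted p under 0.05 (limma, Benjamini-Hochberg over all 22824 clones). Without stress, DBA/2J and C57BL/6J differed in 3 of the 90 translation clones (3.33%), beside 3.62% of all clones called in this comparison. Of the 3, 2 were higher in DBA/2J (2.22%, beside 1.60% of all clones) and 1 was lower (1.11%, beside 2.02%). They were the heme-regulated eIF2 alpha kinase Eif2ak1, one clone of the tRNA carrier Eef1a1, and the EST similar to alanyl-tRNA synthetase. The median log2 ratio over the 90 clones was 0.03, beside 0.01 over all clones, and 16 of them (17.8%, beside 15.4%) had an unadjusted p under 0.05.

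The EST weakly similar to alanyl-tRNA synthetase gave log2 ratios of -1.41 (lowest), -0.86 (median) and -0.30 (highest) over the 10 arrays. All 10 arrays were below 0, in both orientations, and the spot was over the empty-spot level on each of them, with mean intensities of 5867 in DBA/2J and 10620 in C57BL/6J. The mean log2 ratio of -0.86 ± 0.15 (SE, n = 10 arrays) passed the test (limma, adjusted p = 0.00406). Its 7 arrays of the first scan day averaged -0.93 and its 3 of the second -0.68. The 3 clones of Aars itself, the cytosolic alanyl-tRNA synthetase, lay at -0.33, 0.09 and 0.28, and none was called.

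Eif2ak1 gave log2 ratios of 0.02, 0.78 and 1.60 (lowest, median and highest). Every array was above 0, but the arrays with DBA/2J in Cy5 averaged 0.57 and those with DBA/2J in Cy3 1.12. The mean was 0.84 ± 0.17 (SE, n = 10 arrays, limma adjusted p = 0.0123). The spot was faint: on 0 of 10 arrays was it over the 95 in 100 level of the empty spots, and on 7 of 10 over their 75 in 100 level, so no fold is given. The other eIF2 alpha kinases were not called. Eif2ak4, the GCN2 kinase that senses uncharged tRNA, had a log2 ratio of -0.68 ± 0.23 (limma adjusted p = 0.135) and Eif2ak3, the PERK kinase of the endoplasmic reticulum, one of -0.36 ± 0.18 (adjusted p = 0.367), both from faint spots.

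Eef1a1 was spotted as 7 clones, of which 6 lay above 0 between the strains. Clone 3, with mean intensities of 4077 in DBA/2J and 2777 in C57BL/6J, gave log2 ratios of -0.14, 0.52 and 1.23 (lowest, median and highest) and was called at 0.55 ± 0.13 (limma adjusted p = 0.0253). Its arrays split by dye, with a mean of 0.10 where DBA/2J was in Cy5 and 1.01 where it was in Cy3, and the 3 arrays of the second scan day, all with DBA/2J in Cy3, averaged 1.08 beside 0.33 on the first. Clone 2 had the same mean, 0.55 ± 0.16, and missed the threshold (adjusted p = 0.0693). The other bright clone, clone 1, gave 0.39 ± 0.15 (adjusted p = 0.208), and clones 4, 5, 6 and 7 gave 0.07, 0.36, 0.24 and -0.01. A spot for Eef1a1 can also bind RNA of its near-identical copies, so its level is not that of 1 gene with certainty. The call of clone 3 was lost in 6 of the 10 fits that left out 1 array (replicate 1, 2, 4, 7, 9 or 10), with an adjusted p of at most 0.0700.

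**Figure D1:**
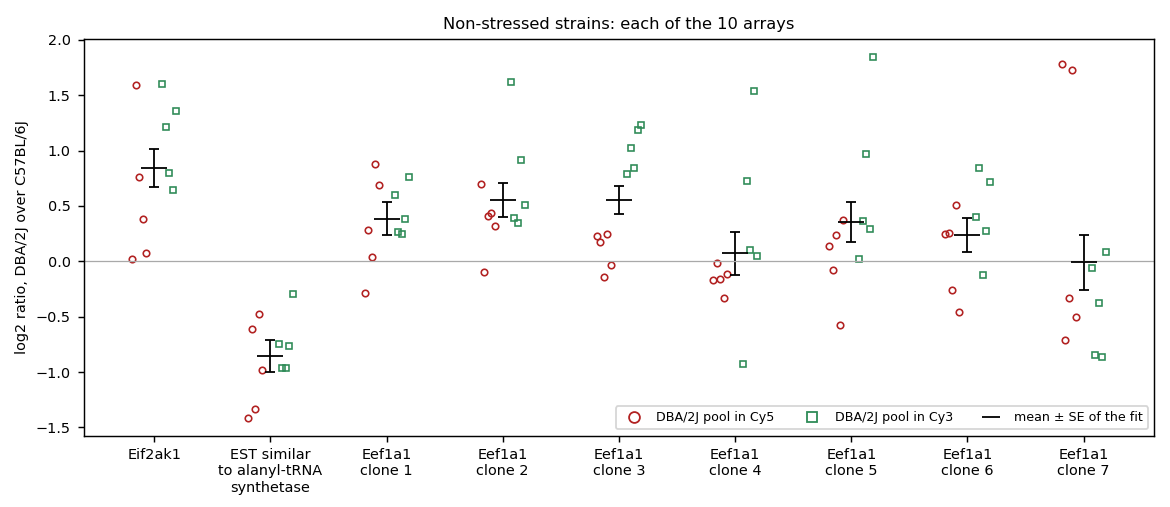
Log2 ratio of DBA/2J over C57BL/6J without stress (vertical axis) on each of the 10 arrays, for the 3 called clones and the other Eef1a1 clones (horizontal axis). Circles are arrays with the DBA/2J pool in Cy5, squares those with it in Cy3, and bars the mean ± SE of the fit. The EST similar to alanyl-tRNA synthetase lies below 0 on all 10 arrays and Eif2ak1 above 0 on all 10, whereas Eef1a1 clone 3 runs from -0.14 to 1.23 and splits by dye.

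Among the eEF1 subunits 12 of the 14 clones lay above 0 between the non-stressed strains, with a median log2 ratio of 0.33 beside 0.01 for all clones, but 1 of 14 was called. Of all clones, 11712 of 22824 lay above 0. The 14 clones stand for 5 genes and 7 of them are Eef1a1, so they are not independent. Some were faint: Eef1a1 clone 7 and Eef1a2 clone 1 were over the empty-spot level on 0 of the 50 arrays. Eef1b2 clone 2, with mean intensities of 6883 in DBA/2J and 4782 in C57BL/6J, had a log2 ratio of 0.53 ± 0.15 (limma adjusted p = 0.0740), and Eef1e1 clones 1 and 2 had 0.38 and 0.42. A fit was also made without faint clones, which kept those whose mean over both dyes exceeded the empty-spot level on average over the arrays fitted. With faint clones left out, 4 of 27 clones (14.8%) were called, beside 17.5% of all clones tested in that way: Eef1a1 clones 2 and 3, Eef1b2 clone 2 and the EST. Markers of other cells moved in the same comparison. Of the marker clones, 4 of 18 for oligodendrocytes (all Mbp) were higher in DBA/2J and 2 (Cnp clone 2 and Mobp clone 4) lower, 4 of 26 for astrocytes (all Glul) were higher, and 2 of 5 for blood (Hbb-b1) were higher. Summed over the list, the oligodendrocyte clones had scanned intensities of 34543 to 82886 per array in DBA/2J and 51339 to 88794 in C57BL/6J, and the astrocyte clones 58875 to 167975 in DBA/2J and 51464 to 79729 in C57BL/6J. Their part in the translation ratios was not tested.

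The extremes that were not called were faint. The clone named only as eIF3, clone 2, gave a log2 ratio of 0.63 ± 0.19 (limma adjusted p = 0.0830) and the mitochondrial seryl-tRNA synthetase Sars2 one of -0.69 ± 0.44, where a single array stood at -5.11. Neither spot was over the 95 in 100 level of the empty spots on any array of the comparison.

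**Figure D2:**
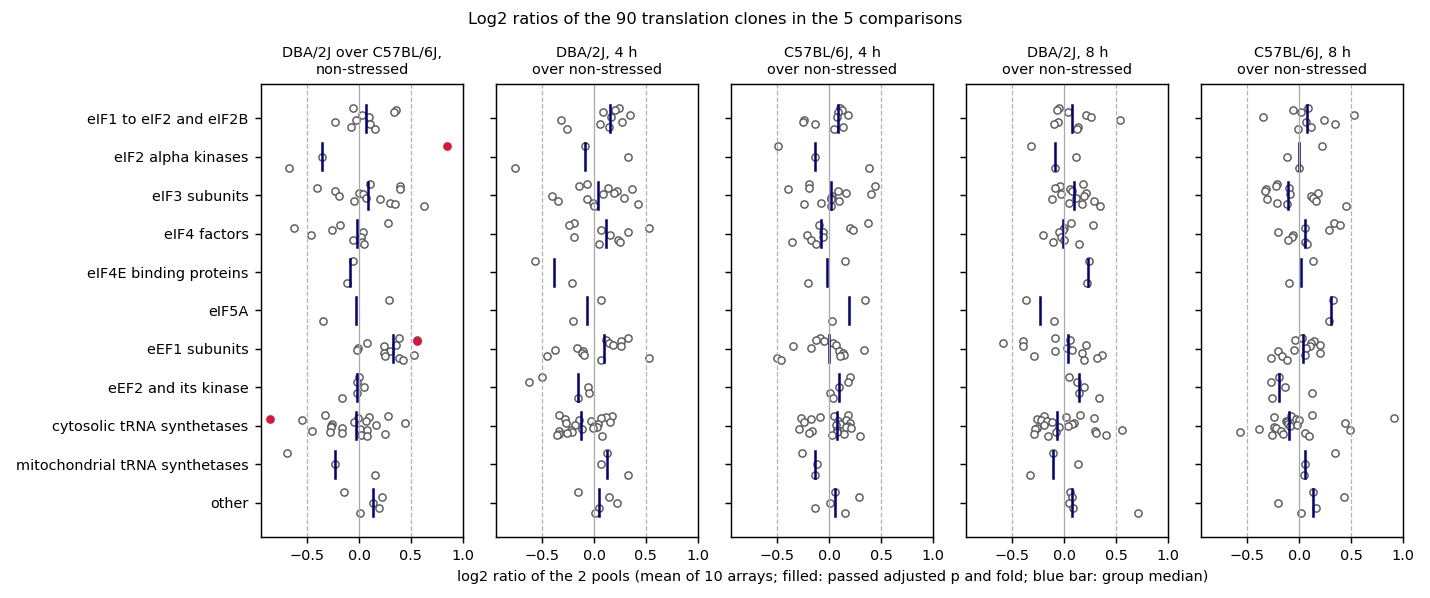
Mean log2 ratio over 10 arrays (horizontal axis) of the 90 translation clones in the 5 comparisons (panels), in rows by role. Open points are clones that were not called, filled points the 3 that were, bars the median of each row, and dashed lines the log2 size of 0.5 a call needs. In the strain panel 12 of the 14 eEF1 clones, which stand for 5 genes with 7 clones being Eef1a1, lie above 0, with a median of 0.33. No clone is filled in the 4 stress panels.

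Within each strain, the swim was set against no stress to ask which genes respond 4 h and 8 h later. At 4 h, 0 of the 90 translation clones were called in DBA/2J, beside 0.153% of all clones, and 0 in C57BL/6J, beside 0.289%. At an unadjusted p under 0.05 there were 17 clones in DBA/2J (18.9%, beside 10.7% of all clones) and 13 in C57BL/6J (14.4%, beside 12.3%), and the methods' t-test with the fold threshold, unadjusted and without the Z-score threshold the methods also set, took 5 in DBA/2J and 1 in C57BL/6J, and after adjustment 0 in both. The t-test counts stand without a share of all clones and are not read as a result about these clones. The median log2 ratio was 0.01 in DBA/2J and 0.04 in C57BL/6J.

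The 2 strains nevertheless differed from each other in their 4 h ratios. When the DBA/2J ratio minus the C57BL/6J ratio was tested over the 20 arrays, 6 of the 90 clones (6.67%) were called, beside 2.34% of all clones. Of these, 2 were higher in DBA/2J (2.22%, beside 1.16%) and 4 lower (4.44%, beside 1.19%). The lower ones were both bright clones of the translocation factor Eef2, the eEF1 subunit Eef1d and the kinase Eif2ak4. The higher ones were Eef1e1 clone 1 and Eif3e clone 2.

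For Eef2, clone 1 gave log2 ratios of -0.85, -0.56 and 0.04 (lowest, median and highest) in DBA/2J at 4 h, and of -0.01, 0.21 and 0.40 in C57BL/6J at 4 h. Only the highest DBA/2J array reached the range of C57BL/6J, where 9 of 10 arrays were above 0. The means were -0.50 ± 0.12 in DBA/2J and 0.20 ± 0.08 in C57BL/6J (SE, n = 10 arrays each), and the difference of -0.70 ± 0.12 passed the test (limma adjusted p = 0.00313). In DBA/2J the mean intensities were 1903 with stress and 2692 without, and in C57BL/6J 4638 and 4042.

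Clone 2 of Eef2 gave -1.25, -0.65 and 0.24 (lowest, median and highest) in DBA/2J, and -0.03, 0.16 and 0.39 in C57BL/6J. Apart from 1 array at 0.24, every DBA/2J array lay below every C57BL/6J array. The means were -0.63 ± 0.14 in DBA/2J and 0.18 ± 0.08 in C57BL/6J, and the difference was -0.81 ± 0.16 (limma adjusted p = 0.00527). Clone 3, the remaining Eef2 clone, was over the empty-spot level on 0 of the 50 arrays, with ratios of -0.06 in DBA/2J and 0.09 in C57BL/6J and a difference of -0.15 ± 0.26 (adjusted p = 0.874). The calls of clones 1 and 2 were kept in all 20 fits that left out 1 array. The kinase that acts on eEF2, Eef2k, had 2 clones with ratios between -0.15 and -0.05 in DBA/2J and between 0.00 and 0.04 in C57BL/6J, none called.

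Eef1e1 encodes a small eEF1-related protein that in mammals also belongs to the complex of tRNA synthetases. Its clone 1 gave log2 ratios of -0.20, 0.52 and 1.38 (lowest, median and highest) in DBA/2J at 4 h, and of -1.15, -0.39 and 0.16 in C57BL/6J. In DBA/2J 9 of 10 arrays were above 0, in C57BL/6J 2 of 10, and the ranges met only between -0.20 and 0.16. The means were 0.53 ± 0.15 in DBA/2J and -0.50 ± 0.10 in C57BL/6J, a difference of 1.03 ± 0.18 (limma adjusted p = 0.00343), and the call was kept in all 20 fits without 1 array. In C57BL/6J the 2 orientations averaged -0.86 (stressed RNA in Cy5) and -0.14 (stressed RNA in Cy3). Clone 2 of the gene had 0.07 ± 0.13 in DBA/2J and -0.46 ± 0.13 in C57BL/6J, and its difference of 0.53 ± 0.17 was not called (adjusted p = 0.114).

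**Figure D3:**
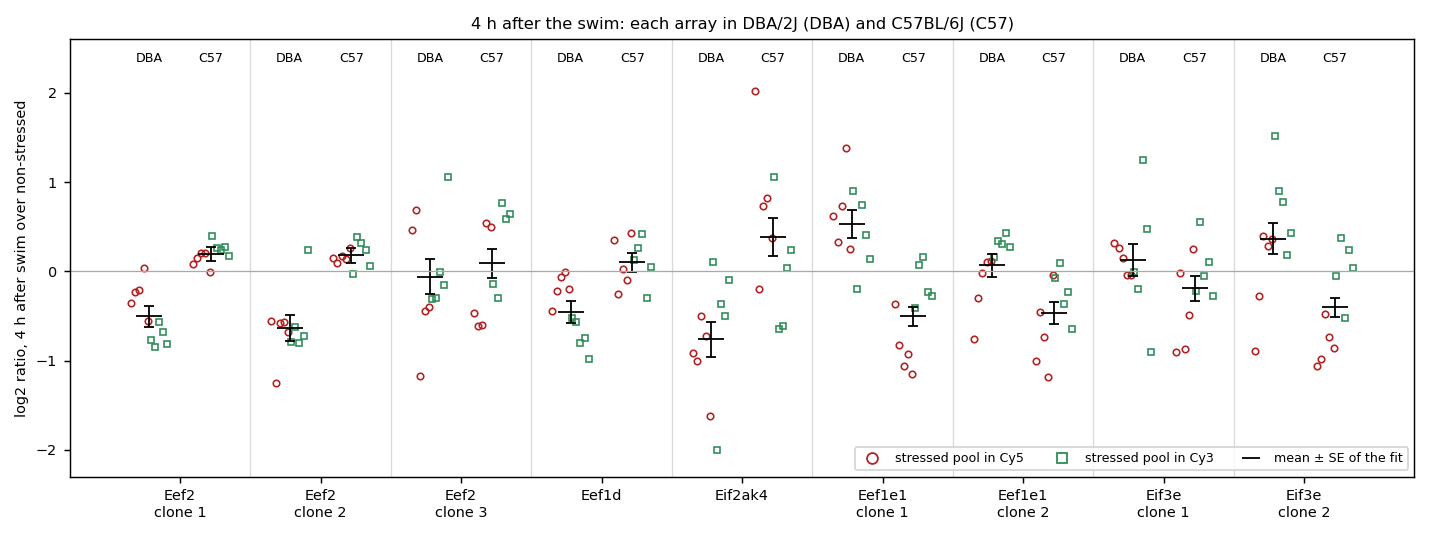
Log2 ratio at 4 h after the swim over no stress (vertical axis) on each array, DBA/2J on the left and C57BL/6J on the right of each panel, for the 6 clones called in the strain difference and the other clones of the same genes. Circles have stressed RNA in Cy5, squares in Cy3, and bars give the mean ± SE of the fit. Eef2 clones 1 and 2 lie near -0.50 and -0.63 in DBA/2J and near 0.20 and 0.18 in C57BL/6J, while the faint clone 3 spreads around 0 in both.

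The other differences at 4 h were lost in most fits that left out 1 array. Eef1d, which helps to recharge eEF1A, was at or below -0.01 on all 10 DBA/2J arrays (-0.98, -0.48 and -0.01 as lowest, median and highest) and at -0.30, 0.09 and 0.44 in C57BL/6J. The means were -0.45 ± 0.12 in DBA/2J and 0.10 ± 0.11 in C57BL/6J, and the difference of -0.56 ± 0.14 (limma adjusted p = 0.0417) was lost in 15 of 20 such fits, with an adjusted p of at most 0.0864. The spot was over the empty-spot level on 1 of the 10 DBA/2J arrays and on 9 of the 10 C57BL/6J arrays.

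Eif3e, an eIF3 subunit, had ratios for clone 2 of -0.89, 0.38 and 1.52 (lowest, median and highest) in DBA/2J and of -1.06, -0.50 and 0.37 in C57BL/6J, which overlap. Its means of 0.37 ± 0.17 in DBA/2J and -0.40 ± 0.11 in C57BL/6J differed by 0.77 ± 0.20 (limma adjusted p = 0.0436), a call lost in 15 of 20 such fits (adjusted p at most 0.0890). Clone 1 differed by 0.32 ± 0.23 and was not called. Eif2ak4 had -0.76 ± 0.19 in DBA/2J, where 9 of 10 arrays were below 0 and the spot was over the empty-spot level on 7, and 0.38 ± 0.21 in C57BL/6J, where it was over that level on 0 of 10. The difference of -1.14 ± 0.30 (adjusted p = 0.0451) was lost in 16 of 20 such fits (adjusted p at most 0.0877) and rests on a C57BL/6J spot with mean intensities of 206 with stress and 158 without.

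With faint clones left out, 4 of 37 clones (10.8%, beside 4.73% of all clones so tested) were called in DBA/2J alone at 4 h. Eef2 clones 1 and 2 and Eif2ak4 were lower, and Eef1e1 clone 1 was higher. That fit adjusted for fewer tests and also estimated the standard errors anew. For Eef2 clone 1 in DBA/2J at 4 h the SE was 0.08, smaller than in the main fit. In C57BL/6J 1 of 73 (1.37%, beside 1.08%) was called, Eef1e1 clone 1, lower. For the difference the count was 11 of 53 clones (20.8%, beside 10.7%), which added Eef1a1 clone 6, Eef1e1 clone 2 and eIF3 clone 1 as higher and Aars clone 1 and the helicase Eif4a1 as lower. Eif2ak4 is among the 11, although its spot was faint in C57BL/6J, since the filter averages over the arrays of both strains. Of the marker clones, Trh was lower in DBA/2J at 4 h (-0.75, adjusted p = 0.0309), and in the strain difference 1 of 5 PVN clones and 3 of 26 astrocyte clones were lower and 0 of 18 oligodendrocyte and 0 of 13 neuronal clones passed. Summed over the list, the astrocyte clones had scanned intensities of 46213 to 151974 per array with stress and 76908 to 148027 without in DBA/2J. The PVN clones had sums of 1230 to 4562 with stress and 2355 to 4998 without. Their part in the translation differences was not tested.

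At 8 h again 0 of the 90 clones were called in DBA/2J, beside 0.158% of all clones, and 0 in C57BL/6J, beside 0.0832%. At an unadjusted p under 0.05 there were 14 in DBA/2J (15.6%, beside 12.0%) and 11 in C57BL/6J (12.2%, beside 9.28%), and the methods' t-test, unadjusted, took 4 in DBA/2J and 1 in C57BL/6J, and after adjustment 0 in both. Here too the t-test counts stand without a share of all clones. The medians were 0.04 in DBA/2J and -0.00 in C57BL/6J. The strain difference in the 8 h ratios called 2 of 90 clones (2.22%, beside 0.600% of all clones), 1 higher in DBA/2J (1.11%, beside 0.206%) and 1 lower (1.11%, beside 0.394%).

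The higher one was Eif2s2 clone 1, the beta subunit of eIF2. It gave log2 ratios of 0.04, 0.26 and 0.58 (lowest, median and highest) in DBA/2J at 8 h and of -0.69, -0.39 and 0.06 in C57BL/6J at 8 h. All 10 DBA/2J arrays were above 0 and 8 of 10 C57BL/6J arrays below, with means of 0.26 ± 0.09 in DBA/2J and -0.35 ± 0.12 in C57BL/6J. The difference of 0.60 ± 0.14 (limma adjusted p = 0.0433) was lost in 17 of 20 fits without 1 array, with an adjusted p of at most 0.0940. Clone 2 of the gene did not pass the test, at 0.54 ± 0.13 in DBA/2J (adjusted p = 0.132) and 0.24 ± 0.15 in C57BL/6J.

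The lower one was Eef1a1 clone 3. It was also called between the strains without stress, from the same non-stressed pools, so its 2 calls are not independent. In DBA/2J at 8 h its arrays lay at -0.68, -0.45 and -0.10 (lowest, median and highest), all below 0, and in C57BL/6J at -0.18, 0.15 and 0.37. The means were -0.39 ± 0.08 in DBA/2J and 0.14 ± 0.11 in C57BL/6J, and the difference of -0.54 ± 0.12 (limma adjusted p = 0.0393) was lost in 18 of 20 such fits (adjusted p at most 0.0866). In DBA/2J at 8 h the bright clone 1 had -0.09 ± 0.08 and clone 2 0.06 ± 0.09, while the fainter clones 4 and 6 had -0.59 ± 0.22 and -0.40 ± 0.09 (adjusted p = 0.305 and 0.126).

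Single marker clones moved at 8 h too. Snap25 clone 4, of a neuronal synaptic protein, was lower in DBA/2J at 8 h (-0.56, limma adjusted p = 0.0340) and higher in C57BL/6J at 8 h (0.89, adjusted p = 0.0150). The 13 neuronal clones as a list did not follow it. Their median was -0.05 in DBA/2J at 8 h, with 5 above 0 and 8 below. In C57BL/6J at 8 h it was -0.11, with 4 above 0 and 9 below. In the strain difference at 8 h 1 of 13 neuronal clones was lower and 1 of 26 astrocyte clones higher, and the 6 endothelial clones, none called, had a median of -0.55. Summed over the list, the neuronal clones had scanned intensities of 64582 to 117507 per array with stress and 65041 to 124502 without in DBA/2J, and 17106 to 41594 with stress and 20815 to 52790 without in C57BL/6J. Their part in the translation ratios was not tested.

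The change between the times was tested in the same way, within a strain. Per the methods all mice were killed at the same clock time, so the 8 h mice swam earlier in the day. Hours since the swim therefore cannot be told apart from the clock time of the swim. In C57BL/6J 0 of 90 clones were called, beside 0.495% of all clones. In DBA/2J 2 of 90 were called (2.22%, beside 1.00%), 1 higher at 8 h than at 4 h (1.11%, beside 0.561%) and 1 lower (1.11%, beside 0.443%). Eef2 clone 2 was higher at 8 h: its ratio was -0.63 ± 0.14 at 4 h and 0.13 ± 0.10 at 8 h, where 9 of 10 arrays were above 0, a difference of 0.76 ± 0.16 (limma adjusted p = 0.0262). Clone 1 of Eef2 had the ratios -0.50 at 4 h and 0.04 at 8 h, and its difference of 0.54 ± 0.14 just missed the threshold (adjusted p = 0.0565). Eef1a1 clone 3 was lower at 8 h, with 0.26 ± 0.15 at 4 h and -0.39 ± 0.08 at 8 h, a difference of -0.65 ± 0.16 (adjusted p = 0.0495) lost in 18 of 20 such fits (at most 0.0925). The Eef2 call was lost in 4 of 20, without DBA/2J 4 h replicate 8 or DBA/2J 8 h replicate 2, 6 or 9, with adjusted p of at most 0.0547. Of the marker clones, 1 of 5 for the PVN and 1 of 26 for astrocytes were higher at 8 h than at 4 h in DBA/2J and 1 of 13 for neurons lower, and their part was not tested.

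**Figure D4:**
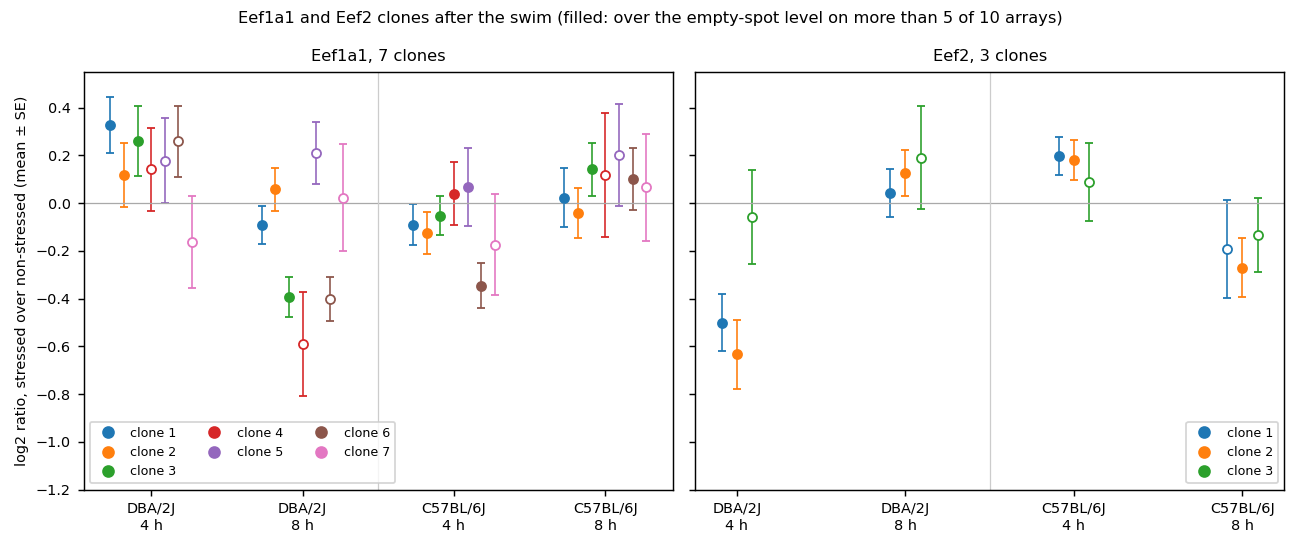
Log2 ratio of stressed over non-stressed (vertical axis, mean ± SE over 10 arrays) for the 7 Eef1a1 clones (left) and the 3 Eef2 clones (right) in each strain and time (horizontal axis). Filled points are spots over the empty-spot level on more than 5 of the 10 arrays. Eef2 clones 1 and 2 lie at -0.50 and -0.63 in DBA/2J at 4 h and between -0.27 and 0.20 elsewhere, while the Eef1a1 clones in DBA/2J at 8 h spread from -0.59 to 0.21.

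The remaining initiation factors gave no call in any of the 9 tests. Eif4a2 had 4 clones whose ratios at 4 h in DBA/2J ran from -0.24 to 0.53, the top one, clone 2, from a spot over the 75 in 100 empty-spot level on 0 of 10 arrays, while the bright clone 4 had 0.33 ± 0.13 (limma adjusted p = 0.390). The 3 clones of Eif4g2 lay between 0.04 and 0.25 in DBA/2J at 4 h and between -0.36 and -0.13 in C57BL/6J at 4 h. All 3 clones thus stood above 0 in one strain and below it in the other, none past the test. Of these, clone 2 was faint, over the empty-spot level on 0 of the 50 arrays. Eif4ebp2, an inhibitor that holds eIF4E, had -0.57 ± 0.20 in DBA/2J at 4 h (adjusted p = 0.316), with arrays from -1.81 to 0.42. The highest 3 clones in C57BL/6J at 4 h, Eif3d clone 2 (0.44), Eif3g (0.41) and Eif2ak4 (0.38), were over the empty-spot level on at most 1 of 10 arrays. The lowest 3 were the 2 Eef1e1 clones and Eif2ak1, at -0.49 ± 0.13 (adjusted p = 0.145). Eif5a, a factor that relieves stalled ribosomes and carries the modified residue hypusine, had 2 clones, of which the brighter gave 0.35 ± 0.12 in C57BL/6J at 4 h (adjusted p = 0.243) and -0.37 ± 0.14 in DBA/2J at 8 h (adjusted p = 0.315). The 3 Eif3l clones ran from -0.35 to -0.02 in DBA/2J at 4 h and from -0.31 to 0.16 in C57BL/6J at 8 h. The elongation factor isoform of neurons and muscle, Eef1a2, had 2 faint clones with ratios between -0.38 and 0.34 over the 5 comparisons.

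The 22 clones of cytosolic tRNA synthetases had medians of -0.03 between the strains, -0.13 in DBA/2J at 4 h, 0.07 in C57BL/6J at 4 h, -0.07 in DBA/2J at 8 h and -0.10 in C57BL/6J at 8 h, and apart from the EST none was called. The top ratio of any translation clone after stress was Cars, the cysteinyl-tRNA synthetase, at 0.92 ± 0.21 in C57BL/6J at 8 h (limma adjusted p = 0.174), but in these arrays its spot was over the 75 in 100 level of the empty spots on 0 of 10. Sars, the cytosolic seryl-tRNA synthetase, had 0.56 ± 0.13 in DBA/2J at 8 h (adjusted p = 0.122), with 9 of 10 arrays above 0, and 0.49 ± 0.21 in C57BL/6J at 8 h (adjusted p = 0.511), with 8 of 10, both from spots over the 95 in 100 level on no array. Eif2b1, of the factor that recharges eIF2, had 0.53 ± 0.23 and Wars clone 1 -0.57 ± 0.20 in C57BL/6J at 8 h, and Nars -0.39 ± 0.19, again from faint spots. Eefsec had 0.71 ± 0.27 in DBA/2J at 8 h (adjusted p = 0.313), with arrays from -0.92 to 2.34. The 3 clones of Eprs, which loads glutamate and proline, ran from -0.27 to 0.15 in DBA/2J at 4 h, and the 3 of Aars from -0.34 to 0.17.

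Other genes of translation control that the name rule does not take were read as a list of 28 names with 38 clones: ribosome recycling and release, poly(A) binding, the mTOR axis, the targets of eIF2 alpha phosphorylation, mitochondrial factors and rescue of stalled ribosomes. Of these 1 of 38 was called, in 1 of the 5 comparisons, where 3.62% of all clones were. Gspt1 clone 1, the release factor eRF3a, was the lower one, in non-stressed DBA/2J against C57BL/6J, at -0.80 ± 0.16 (limma adjusted p = 0.00887), whereas its clone 2 had -0.10 ± 0.15. Atf4, the transcription factor made when eIF2 alpha is phosphorylated, had 0.48 ± 0.24 in C57BL/6J at 4 h (adjusted p = 0.476). The list's medians ran from -0.03 to 0.08 over the 5 comparisons, and 8 of its 38 clones were over the empty-spot level on at least 25 arrays.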

How the data were processed

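RNA from 6 pools was compared in 5 pairs on 50 two-colour spotted cDNA arrays. Per the methods, RNA was amplified in 2 rounds before labelling, and arrays were scanned on a ScanArray and quantified with QuantArray as fixed circles. The deposited scanner tables give a linear intensity and a background per spot and channel, which per the file headers were neither crosstalk corrected nor background subtracted. The background was 0 for 96.6% of values. The dye of each channel was read from its image name, as 4 arrays list Cy3 first. The log2 ratios of the authors' processed value table, whose filter and normalization are not given in the sources used here, served only as an alternative.

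Of 24192 spots, 1368 controls (1170 empty) were left out of the tests. Intensities were corrected by normexp with an offset of 50 and by loess within each array (span 0.3, controls at weight 0) in limma 3.58.1 (R 4.3.3, statmod 1.5.0), and each ratio was turned by its labelled dyes. Each comparison was fitted with limma's lmFit and eBayes over its 10 arrays with a term for dye orientation, and the differences over the 20 arrays of 2 comparisons. The Benjamini-Hochberg adjustment ran over all 22824 clones, and a call needed an adjusted p under 0.05 and a log2 size of 0.5. The number of arrays limits the precision. Brightness was set against the 95th and 75th percentile of the empty spots in both dyes. Figures and counts used Python 3.11.15, pandas 2.3.3, numpy 2.4.6 and matplotlib 3.10.9. The fits were tested on simulated data, where 50 clones per fit had a log2 change of 1. Of these, 54% to 70% were called in the single comparisons and 24% to 42% in the differences. A clone that was not called may therefore still have changed.

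The members, the wider list, the markers and the tests were chosen with earlier results of these data known, and 1 marker gene is not reported here. Clones are named where called, where among the highest or lowest 3 of a comparison, where the study's lists name the gene, where the brightest of a role, and as a range for genes with 3 or more clones. The other clones of a called gene, Eif2ak3, Eef2k, Eif4a1, Atf4 and the clones over the empty-spot level on every array were added after their values were seen. Start sites and symbols are those of RefSeq (GRCm38.p6), which holds all 47 symbols. Alternatives were print-tip loess, no background subtraction, median centring, one spread for all arrays, faint clones left out, no dye term, orientations averaged or alone, clones of one name averaged, the methods' t-test (without their Z-score threshold), the adjusted p alone, the authors' values, the replicate number or scan day as a block, all 50 arrays together, and each array left out.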

Additional observations from a re-analysis of the deposited data

Results flagged for a closer look

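In 6 of the 93 clone and comparison pairs described, 1 array of the 10 stood apart from the rest by Dixon's criterion at the 95% level, where chance alone marks about 1 group in 20. Replicate 10 of DBA/2J at 4 h gave Eef2 clone 2 a log2 ratio of 0.24, the next value being -0.56, and replicate 2 of C57BL/6J at 8 h gave it -0.92, the next being -0.39. Eif2s2 clone 2 stood at 1.33 in replicate 3 of DBA/2J at 8 h, with 0.64 next. The faint Eef1a2 clone 2 stood at 2.11 in replicate 7 of DBA/2J at 4 h, with 0.30 next, and at -1.77 in replicate 9 of C57BL/6J at 8 h, with -0.48 next. Sars2, a spot near the empty ones, stood at -5.11 in replicate 9 of the strain comparison, with -1.70 next.

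A further 10 results are differences in response that passed the limma test of the difference itself. At 4 h, DBA/2J minus C57BL/6J was 1.03 for Eef1e1 clone 1, 0.77 for Eif3e clone 2, -0.56 for Eef1d, -0.70 for Eef2 clone 1, -0.81 for Eef2 clone 2 and -1.14 for Eif2ak4. At 8 h it was 0.60 for Eif2s2 clone 1 and -0.54 for Eef1a1 clone 3. In DBA/2J, 8 h minus 4 h was 0.76 for Eef2 clone 2 and -0.65 for Eef1a1 clone 3. Over the 20 fits without 1 array, the 4 h difference of Eef2 clone 2 ran from -0.91 to -0.75, and the fit without the array at 0.24 is among them.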

How the results depend on the processing

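None of the 13 calls described changed direction under another setting or without any 1 array. The calls of Eef1e1 clone 1 and of Eef2 clones 1 and 2 in the 4 h strain difference were kept in all 10 other settings, and that of the EST similar to alanyl-tRNA synthetase in 13 of 16. The others were called in fewer: Eif2ak1 between strains in 12 of 15 (lost with orientations averaged or alone), Eef1a1 clone 3 in 7 of 16 between strains and 5 of 10 for each of its differences, Eef1d and Eif2ak4 in 8 of 10, Eif3e clone 2 and Eif2s2 clone 1 in 7 of 10, and Eef2 clone 2 in the DBA/2J time difference in 7 of 10. Each of these counts includes the adjusted p alone, which drops only the fold threshold of the main fit and so cannot lose a call. A setting can also move the calls over all clones. With faint clones left out, 17.5% of all clones so tested were called between strains, beside 3.62% in the main fit. The counts below therefore show dependence on the setting and not a trait of the translation clones. The counts of called translation clones moved as follows, beside 3 between strains, 0 in each stress comparison, 6 in the 4 h and 2 in the 8 h strain difference, 0 in the C57BL/6J and 2 in the DBA/2J time difference. With all 50 arrays in one fit they were 8 between strains, 4 in DBA/2J at 4 h, 1 in C57BL/6J at 4 h, 1 in C57BL/6J at 8 h, 1 in the C57BL/6J time difference and 4 in the DBA/2J time difference. With faint clones left out, they were 4 in DBA/2J at 4 h, 1 in C57BL/6J at 4 h and 11 in the 4 h difference. That fit adjusts for fewer tests and also estimates the standard errors anew. It gave 4 between strains and 3 of 20 in the 8 h difference (15.0%, beside 7.34% of all clones so tested). In the DBA/2J time difference it gave 3 of 20 (15.0%, beside 11.7%), where Eef2 clone 1 was the added call. The methods' t-test, unadjusted, gave 7 between strains, 5 in DBA/2J and 1 in C57BL/6J at 4 h, and 4 in DBA/2J and 1 in C57BL/6J at 8 h. With scan day as a block they were 6 between strains, 2 in DBA/2J at 4 h and 1 in DBA/2J at 8 h. Between strains, median centring gave 5, and orientations averaged, or DBA/2J in Cy5 or in Cy3 alone, each gave 0 (both orientations alone have fewer arrays). In the 4 h difference no dye term gave 3. In the 8 h difference the authors' values and print-tip loess gave 1 each, and median centring, no dye term and clones of one name averaged gave 0. In the DBA/2J time difference the authors' values gave 6, print-tip loess 4, no background subtraction 1, no dye term 1, and median centring and clones of one name averaged 0. Beyond this the cause was not tested.

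Leaving out each array in turn gave 2 to 4 calls between strains, 3 to 5 in the 4 h difference, 0 to 2 in the 8 h difference, 0 to 1 in the C57BL/6J and 0 to 2 in the DBA/2J time difference, and 0 to 0 in each stress comparison. Replicate numbers did not pair the arrays, since the deviations of same-numbered arrays correlated between -0.016 and 0.021, and the replicate block moved the DBA/2J time difference to 1 call and no other count.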

Other observations

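The scanned level of a few spots differed sharply between the comparisons, in both pools alike, so that the ratios do not show it. Over the 5 comparisons the mean level of both pools varied by at least 10-fold in 4 of the 90 translation clones (4.44%), beside 1080 of all 22824 clones (4.73%). The EST similar to alanyl-tRNA synthetase had a level of 80.9 on the DBA/2J 8 h arrays and of 4441 to 15240 on the others, and Eef2 clone 1 had 127 on the C57BL/6J 8 h arrays and 2149 to 4575 on the others. Eif3g lay between 90.3 and 1730 and Eif1a between 48.9 and 633, both lowest on the strain arrays. Levels were not normalised between arrays, and the cause was not tested. For Eef2 at 8 h in C57BL/6J this leaves clone 2, at -0.27 ± 0.12 (limma adjusted p = 0.539), as the spot over the empty-spot level.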
